A study of Homo sapiens with 3 samples.

Results

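The genes of the actin cytoskeleton and of actomyosin, its contractile form, were examined in 5637 cells, a human bladder cancer line, after siRNA against MYBL2. The set was a list of 41 gene names, covering actin, the proteins that bind its monomers and filaments, non-muscle myosin II and the transcription factor SRF, and all 41 were found among the 35851 rows of the deposited table. The siMYBL2 group held 2 libraries, siMYBL2-1 and siMYBL2-2, and the siNC group, taken as the control, held 1 library. All 3 libraries came from 5637 cells of genotype WT that were transfected with siRNA by a lipid reagent. How long after transfection the cells were harvested is not stated in the labels. These also say neither whether siMYBL2-1 and siMYBL2-2 are different siRNA sequences or repeats, nor whether the cells were separate cultures, so p-values measure only the spread between these libraries, which may be technical. The cells are 1 line, and the single siNC library has no repeat.

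Actin is a monomer that assembles into polar filaments. Profilin and the beta-thymosins hold the monomer pool, the Arp2/3 complex and formins start new filaments, capping protein stops their growth, and cofilin with its partners takes them apart. Alpha-actinin, filamin, tropomyosin and calponin organise filaments into bundles and stress fibres, on which non-muscle myosin II pulls. Free actin monomers hold back the coactivators MRTFA and MRTFB, and when monomers are used up these factors join SRF on CArG boxes in the promoters of actin and of many actin-binding genes. In epithelial cells these parts set cell shape, adhesion and movement.

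Levels are RPKM (reads per exonic kilobase, made relative to all reads assigned in a library), and 41818861 reads were assigned in siMYBL2-1, 46177658 in siMYBL2-2 and 40259436 in siNC. MYBL2, the targeted gene, was at 46 RPKM in siMYBL2-1 and 56.3 RPKM in siMYBL2-2, against 211 RPKM in siNC. The labels call the cells bladder cancer cells, and markers of epithelium, the tissue most such cancers come from, were present: all 9 had reads in every library, with summed levels of 2468 RPKM in siMYBL2-1, 1903 RPKM in siMYBL2-2 and 2175 RPKM in siNC. The 12 markers of smooth muscle and fibroblasts, cell types that also use several of the 41 genes, summed to 15.0 and 14.5 RPKM in the siMYBL2 libraries and 18.4 RPKM in siNC. Among them DES had 0 reads in every library, and MYH11 was at 0.0921 and 0.130 RPKM in the siMYBL2 libraries and 0.233 RPKM in siNC. Not all were near 0: 4 of the 12, SYNM, SMTN, COL1A1 and THY1, averaged at least 1 RPKM. SYNM made up most of the sums, at 8.87 and 9.48 RPKM in siMYBL2-1 and siMYBL2-2, against 12.3 RPKM in siNC. In bulk RNA, fewer cells of a kind and less RNA per cell cannot be told apart. All ratios to siNC share the same siNC library. Intervals beside ratios are exact conditional binomial intervals at 95% confidence and cover counting error only.

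The 41 genes were mostly abundant. Of the 39 that averaged at least 1 RPKM, the filter for testing, 37 lay above the median of the 13274 genes tested and 21 in the top 10%. Together the 41 genes took 2.45% of the assigned reads in siMYBL2-1 and 2.22% in siMYBL2-2, against 1.79% in siNC. This share weighs members by their reads, and EZR alone had 184088 of 1025091 member reads in siMYBL2-1. Its reads were 104501 of 1027450 in siMYBL2-2 and 71391 of 721497 in siNC. TMSB10, EZR and TMSB4X had the highest mean levels. CNN1, the smooth muscle calponin, missed the filter, with 0 reads in siMYBL2-1, 1 in siMYBL2-2 and 2 in siNC. MYL9, a regulatory light chain of smooth muscle, missed it too, at 0.543 RPKM in siMYBL2-1 and 1.04 RPKM in siMYBL2-2, against 0.916 RPKM in siNC.

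**Figure D1:**
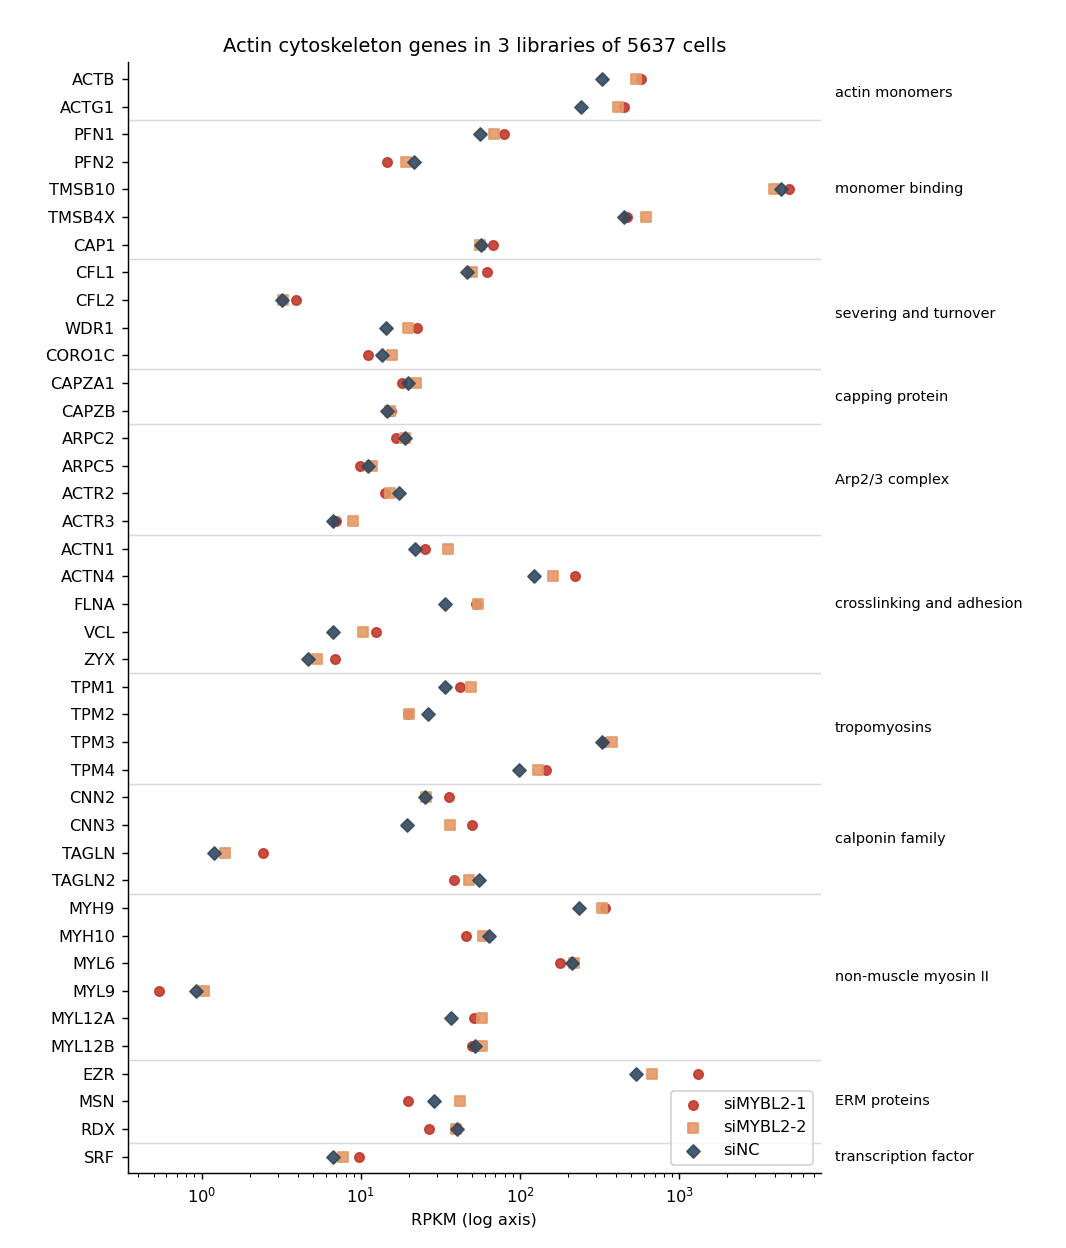
RPKM (log axis) of 40 of the 41 genes in the siMYBL2-1, siMYBL2-2 and siNC libraries, 1 symbol per library, grouped by role; CNN1 is left out because it had 0 reads in siMYBL2-1. Levels run from 0.543 RPKM for MYL9 to 4902 RPKM for TMSB10, both in siMYBL2-1.

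No member passed limma across all genes. For siMYBL2 against siNC, limma with Benjamini-Hochberg adjustment called 0 of 39 members higher, beside 0.00753% of all genes tested, and 0 lower, beside 0%. MYBL2 itself, at 21.8% and 26.7% of siNC in siMYBL2-1 and siMYBL2-2, was thus not called lower either. The lack of calls therefore does not show that the members were unchanged. At an unadjusted p under 0.05 there were 5 members higher in siMYBL2, CNN3, ACTG1, ACTB, VCL and FLNA, beside 1.94% of all genes, and 0 lower, beside 2.76%. Limma-voom on reads recovered from the table also called 0 members higher, beside 0.0226%, and 0 lower, beside 0.0527%, and had 7 at an unadjusted p under 0.05, beside 629 of all 13274 genes. In both siMYBL2 libraries 24 of the 39 members (61.5%) lay above siNC, beside 29.7% of all genes tested. Another 6 members (15.4%), PFN2, ACTR2, TPM2, TAGLN2, MYH10 and RDX, lay below siNC in both, beside 36.4% of all genes, and for 9 the groups overlapped.

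By size alone, 9 of 39 members (23.1%) were at least 1.5-fold higher in siMYBL2-1 than in siNC, beside 11.2% of all genes tested. They were ACTB, ACTG1, WDR1, ACTN4, FLNA, VCL, CNN3, TAGLN and EZR. RDX alone (2.56%) was at least 1.5-fold lower, beside 15% of all genes. In siMYBL2-2, 7 members (17.9%) were at least 1.5-fold higher than in siNC, namely ACTB, ACTG1, ACTN1, FLNA, VCL, CNN3 and MYL12A, beside 4.91% of all genes, and 0 were lower, beside 8.63%. At 2-fold, CNN3, TAGLN and EZR (7.69%) were higher in siMYBL2-1, beside 4.22% of all genes, and 0 lower, beside 4.83%. In siMYBL2-2 there were 0 at 2-fold, beside 1.21% higher and 2.55% lower among all genes. The median log2 ratio to siNC of the 39 members was 0.25 in siMYBL2-1 and 0.21 in siMYBL2-2, while that of all genes tested was -0.05 and -0.02. These shares and medians describe a list of names and were not tested as a set. All genes tested, the background of each share, were not matched to the members in level. Their median limma log2 change, siMYBL2 against siNC, was -0.031, and 0.00044 for genes averaging at least 5 RPKM.

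**Figure D2:**
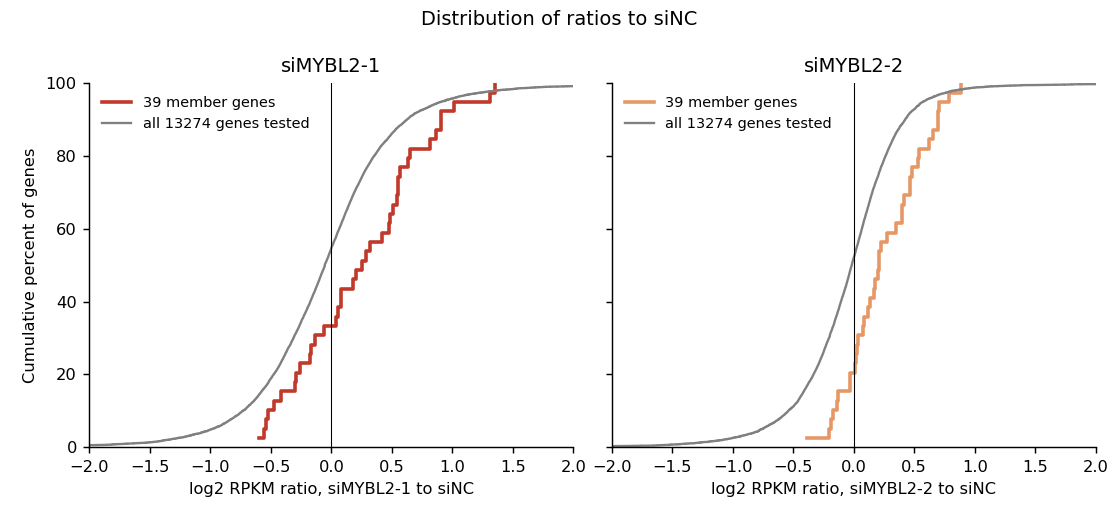
Cumulative percent of genes (vertical axis) by log2 RPKM ratio to siNC (horizontal axis) in siMYBL2-1 and siMYBL2-2, for 39 member genes (coloured) and all 13274 genes tested (grey). The member medians are 0.25 in siMYBL2-1 and 0.21 in siMYBL2-2, to the right of the medians of all genes, -0.05 and -0.02.

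SRF, the serum response factor that binds CArG boxes, was expressed at a modest level in every library. It was at 9.67 and 7.68 RPKM in siMYBL2-1 and siMYBL2-2 (mean 8.67 ± 1.41 RPKM, SD, n = 2), against 6.65 RPKM in siNC. Both siMYBL2 libraries lay above siNC, by 1.45-fold (1.35 to 1.57) and 1.15-fold (1.07 to 1.25). The gene lies on chromosome 6, 43171299 to 43181507, plus strand (hg38, as deposited).

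A CArG box is CC, 6 bases of A or T, and GG, a pattern that is the same on both strands. It was searched in the RefSeq promoter windows of GRCh38.p14, each from 250 bases before to 50 bases after an annotated start. Of the 41 members 37 had at least 1 window (ACTB, PFN2, TAGLN and MYL9 were not matched), and 6 of the 37 (16.2%) held a CArG box: SRF, ACTG1, ACTN1, FLNA, TPM4 and CNN2. The share over all 27305 genes with a window was 1.6%, and over all 35116 windows 1.29%, while 6 of the 62 member windows (9.68%) held one. The stretches around these boxes are given because SRF is known to act on its targets through such boxes. Boxes are in capitals, and each sequence runs 5′ to 3′ on the strand of its gene and ends before the start site.
SRF: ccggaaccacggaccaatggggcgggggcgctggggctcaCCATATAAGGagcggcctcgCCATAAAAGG
ACTG1: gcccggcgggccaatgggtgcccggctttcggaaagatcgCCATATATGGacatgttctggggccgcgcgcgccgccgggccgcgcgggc
FLNA: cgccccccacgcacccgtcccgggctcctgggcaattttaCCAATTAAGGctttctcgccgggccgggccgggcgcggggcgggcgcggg
CNN2: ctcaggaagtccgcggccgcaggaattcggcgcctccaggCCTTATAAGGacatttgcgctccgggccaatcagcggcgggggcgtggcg
ACTN1: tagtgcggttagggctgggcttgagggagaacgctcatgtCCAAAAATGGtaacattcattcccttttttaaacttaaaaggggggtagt
TPM4: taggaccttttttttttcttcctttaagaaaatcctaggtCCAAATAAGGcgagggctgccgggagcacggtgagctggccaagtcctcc
They lie at chr6:43171199-43171268 (SRF, plus strand), chr17:81512844-81512933 (ACTG1, minus strand), chrX:154374679-154374768 (FLNA, minus strand), chr19:1026479-1026568 (CNN2, plus strand), chr14:68977688-68977777 (ACTN1, minus strand) and chr19:16067325-16067414 (TPM4, plus strand). In SRF 1 of 2 windows held 2 boxes, which begin 30 and 10 bases before the start. In ACTG1 and FLNA the box begins 94 bases before the start and in CNN2 89. In ACTN1 it lies in 1 of 4 windows, at 171 bases, and in TPM4 in 1 of 3, at 173. The TEAD motif GGAATG, searched on both strands, was found in 7 of the 37 members (18.9%), PFN1, ACTN1, VCL, CNN3, MYH9, MYH10 and MYL12A, and in 16.7% of all genes with a window. In ACTN1, which held both, the motif and the box did not overlap. The 6 members with a CArG box had a median log2 ratio to siNC of 0.55 in siMYBL2-1 (0.20 to 0.91) and 0.55 in siMYBL2-2 (0.02 to 0.78). The 30 tested members whose windows held none had medians of 0.08 (-0.60 to 1.35) and 0.17 (-0.39 to 0.88), so the ranges overlapped, and the difference was not tested.

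**Figure D3:**
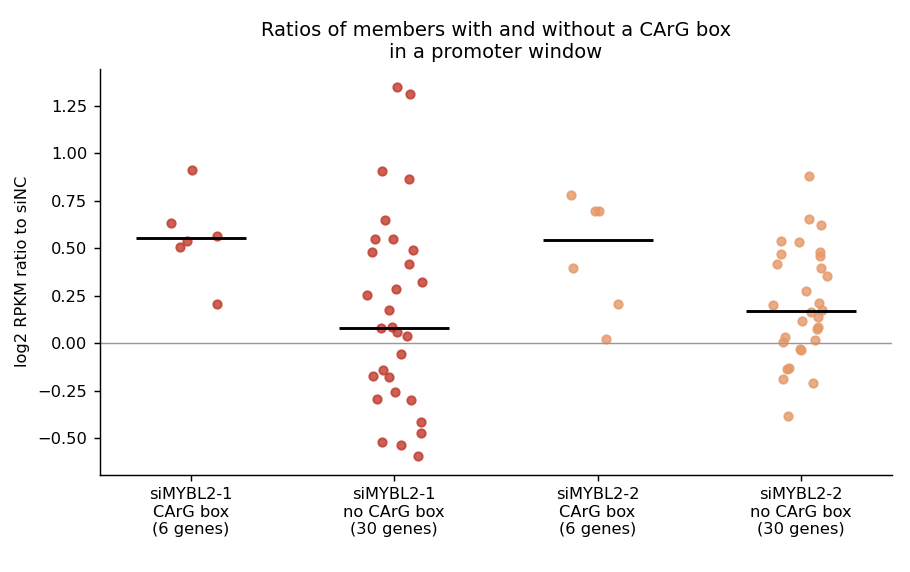
Log2 RPKM ratio to siNC (vertical axis) of 36 tested members with a RefSeq promoter window, by library and by presence of a CArG box in a window; each point is 1 gene and the bar is the median. For 6 genes with a box the median is 0.55 in siMYBL2-1 and 0.55 in siMYBL2-2, against 0.08 and 0.17 for 30 genes without.

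The cytoplasmic actins were higher in both siMYBL2 libraries, by similar factors. ACTB (beta-actin; chromosome 7, 5527151 to 5563784, minus strand) was at 577 and 533 RPKM in siMYBL2-1 and siMYBL2-2 (mean 555 ± 30.5 RPKM, SD, n = 2), against 327 RPKM in siNC. That is 1.76-fold (1.74 to 1.78) and 1.63-fold (1.61 to 1.65), and the siMYBL2 libraries lay closer to each other than to siNC. Limma gave a log2 change of 0.76 (SE 0.29) at an adjusted p of 0.934, from 78501 and 80208 reads in siMYBL2-1 and siMYBL2-2, and 42842 in siNC. ACTG1 (gamma-actin; chromosome 17, 81509971 to 81523847, minus strand) was at 450 and 412 RPKM in siMYBL2-1 and siMYBL2-2 (mean 431 ± 26.8 RPKM, SD, n = 2), against 239 RPKM in siNC, or 1.88-fold (1.85 to 1.91) and 1.72-fold (1.70 to 1.75). For ACTG1 the limma log2 change was 0.84 (SE 0.29), adjusted p 0.827, from 56009 and 56630 reads in siMYBL2-1 and siMYBL2-2, and 28686 in siNC. The balance of the 2 actins was similar in every library, with ACTB at 1.28 and 1.29 times ACTG1 in the siMYBL2 libraries and 1.37 times in siNC.

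The genes that hold actin monomers did not follow as a group. TMSB10 (thymosin beta-10), which keeps monomers from assembling, was the most abundant member at 4902 and 3947 RPKM in siMYBL2-1 and siMYBL2-2, against 4335 RPKM in siNC, and the groups overlapped. Its relative TMSB4X was at 470 and 621 RPKM in siMYBL2-1 and siMYBL2-2, against 451 RPKM in siNC. The summed RPKM of both actins was 0.191 and 0.207 of that of both thymosins in the siMYBL2 libraries, against 0.118 in siNC. PFN1 (profilin-1), which feeds monomers to growing ends, was at 78.9 and 68.1 RPKM in the siMYBL2 libraries, against 56.2 RPKM in siNC. PFN2 (profilin-2) lay on the other side, at 14.7 and 19.2 RPKM in siMYBL2-1 and siMYBL2-2, against 21.6 RPKM in siNC. PFN1 made up 84.3% and 78.0% of the summed profilin RPKM in siMYBL2-1 and siMYBL2-2, against 72.2% in siNC. CAP1, which helps to recycle monomers from cofilin, was at 67.8 and 55.6 RPKM in the siMYBL2 libraries and 56.9 RPKM in siNC, so its groups overlapped.

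Among the 4 members of filament turnover WDR1 stood highest relative to siNC. WDR1 (Aip1), the cofactor that helps cofilin dismantle filaments, was at 22.4 and 19.7 RPKM in siMYBL2-1 and siMYBL2-2 (mean 21.1 ± 1.88 RPKM, SD, n = 2), against 14.3 RPKM in siNC, from 7332 and 7136 reads in siMYBL2-1 and siMYBL2-2, and 4499 in siNC. This was 1.57-fold (1.51 to 1.63) and 1.38-fold (1.33 to 1.44), with a limma log2 change of 0.53 (SE 0.29), adjusted p 0.999. Both values lay above siNC. CFL1, the main cofilin, was at 61.5 and 50.0 RPKM in the siMYBL2 libraries, against 46.2 RPKM in siNC, and CFL2, the muscle form, at 3.90 and 3.24 RPKM, against 3.20 RPKM in siNC. CFL1 was 1.33-fold (1.3 to 1.37) in siMYBL2-1 and nearer siNC, 1.08-fold (1.06 to 1.11), in siMYBL2-2, and 81.0% of its exonic sequence is covered by no other row. CORO1C, a coronin of filament branches, split the siMYBL2 libraries around siNC, at 11 and 15.8 RPKM, against 13.6 RPKM in siNC.

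The 6 members that start and cap filaments, 4 Arp2/3 subunits and 2 of capping protein, stayed near siNC. All their ratios to siNC lay between 0.816 and 1.34. ACTR3, an actin-related subunit that forms the seed of a branch, was at 7.02 and 8.87 RPKM in siMYBL2-1 and siMYBL2-2, against 6.64 RPKM in siNC. Its ratios to siNC were 1.06 (1.01 to 1.11) and 1.34 (1.28 to 1.40). The other seed subunit, ACTR2, lay below siNC, at 14.2 and 15.3 RPKM in the siMYBL2 libraries and 17.4 RPKM in siNC. The ratios of ACTR2 were 0.816 (0.774 to 0.861) and 0.879 (0.836 to 0.924). The other two member subunits overlapped between groups, ARPC2 at 16.7 and 18.9 RPKM in siMYBL2 and 18.8 RPKM in siNC, and ARPC5 at 9.84 and 11.8 RPKM in siMYBL2 and 11.1 RPKM in siNC. Summed over these 4 subunits the level was 47.8 and 54.9 RPKM in the siMYBL2 libraries, against 54.0 RPKM in siNC. Of capping protein, which blocks the fast-growing filament end, CAPZB was at 15.4 and 15.3 RPKM in siMYBL2 and 14.5 RPKM in siNC, and CAPZA1 at 18.0 and 22.3 RPKM in siMYBL2 and 19.8 RPKM in siNC.

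All 5 crosslinking and adhesion genes lay above siNC in both siMYBL2 libraries, beside 29.7% of all genes tested, and none passed limma. FLNA (filamin A), which joins filaments into networks, was at 52.4 and 54.7 RPKM in siMYBL2-1 and siMYBL2-2 (mean 53.6 ± 1.59 RPKM, SD, n = 2), against 33.8 RPKM in siNC, from 23216 and 26734 reads in siMYBL2-1 and siMYBL2-2, and 14399 in siNC. The ratios were 1.55 (1.52 to 1.58) and 1.62 (1.59 to 1.65), and the limma log2 change was 0.65 (SE 0.29), adjusted p 0.999. The siMYBL2 values of FLNA lay close together. VCL (vinculin), which links filaments to adhesion sites, was at 12.5 and 10.2 RPKM in siMYBL2-1 and siMYBL2-2 (mean 11.4 ± 1.58 RPKM, SD, n = 2), against 6.64 RPKM in siNC, or 1.88-fold (1.79 to 1.97) and 1.54-fold (1.47 to 1.62). For VCL limma gave a log2 change of 0.69 (SE 0.29), adjusted p 0.999, from 5211 and 4722 reads in siMYBL2-1 and siMYBL2-2, and 2673 in siNC, and 88.9% of its exonic sequence is covered by no other row. ZYX (zyxin), an adapter of adhesions and stress fibres, was at 6.85 and 5.28 RPKM in the siMYBL2 libraries, against 4.68 RPKM in siNC. That is 1.46-fold (1.33 to 1.62) in siMYBL2-1 and 1.13-fold (1.02 to 1.25) in siMYBL2-2.

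The alpha-actinins, which crosslink filaments, were both above siNC, each by more in a different library. ACTN4 was at 222 and 160 RPKM in siMYBL2-1 and siMYBL2-2 (mean 191 ± 43.3 RPKM, SD, n = 2), against 122 RPKM in siNC, 1.82-fold (1.79 to 1.84) and 1.32-fold (1.3 to 1.34), from 56493 and 45150 reads in siMYBL2-1 and siMYBL2-2, and 29907 in siNC. ACTN1 was at 25.1 and 35.3 RPKM in siMYBL2-1 and siMYBL2-2 (mean 30.2 ± 7.21 RPKM, SD, n = 2), against 21.8 RPKM in siNC, 1.15-fold (1.12 to 1.18) and 1.62-fold (1.58 to 1.66), from 11151 and 17316 reads in siMYBL2-1 and siMYBL2-2, and 9318 in siNC. The ratio of ACTN4 to ACTN1 within a library was thus 8.83 in siMYBL2-1 and 4.54 in siMYBL2-2, against 5.59 in siNC. For ACTN4 the limma log2 change was 0.63 (SE 0.31), adjusted p 0.999, and 85.8% of its exonic sequence is covered by no other row, the rest being shared with CAPN12.

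Tropomyosins, coiled coils that lie along the filament and influence which proteins bind it, lay on both sides of siNC. TPM4 was at 146 and 130 RPKM in siMYBL2-1 and siMYBL2-2, against 98.5 RPKM in siNC, 1.48-fold (1.46 to 1.5) and 1.32-fold (1.3 to 1.34). TPM1 was at 42.2 and 48.8 RPKM in siMYBL2-1 and siMYBL2-2, against 33.7 RPKM in siNC, with 77.3% of its exonic sequence covered by no other row. TPM2 was lower in both, at 19.7 and 20.1 RPKM in the siMYBL2 libraries and 26.3 RPKM in siNC, at ratios of 0.75 (0.716 to 0.785) and 0.766 (0.733 to 0.8). The siMYBL2 values of TPM2 were nearly equal, and the interval of their ratio to each other, 0.979 (0.934 to 1.03), spans equality. TPM3, the most abundant, was at 336 and 376 RPKM in siMYBL2, against 328 RPKM in siNC. TPM4 made up 26.8% and 22.5% of the summed tropomyosin RPKM in siMYBL2-1 and siMYBL2-2, against 20.3% in siNC. The share of TPM2 was 3.62% and 3.50% in the siMYBL2 libraries, against 5.40% in siNC.

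The calponin family held the largest mean log2 ratio of the set. CNN3 (chromosome 1, 94896949 to 94927278, minus strand) is a calponin of non-muscle cells, which binds actin filaments. It was at 49.8 and 36.1 RPKM in siMYBL2-1 and siMYBL2-2 (mean 42.9 ± 9.74 RPKM, SD, n = 2), against 19.6 RPKM in siNC. These levels came from 5914 and 4726 reads in siMYBL2-1 and siMYBL2-2, and 2234 in siNC. The ratios were 2.55 (2.43 to 2.68) and 1.84 (1.75 to 1.94), and the limma log2 change of 1.08 (SE 0.31) had an adjusted p of 0.629, or 0.576 by limma-voom. CNN2 was at 35.8 and 25.6 RPKM in siMYBL2-1 and siMYBL2-2, against 25.2 RPKM in siNC, and the siMYBL2-2 ratio of 1.02 (0.973 to 1.06) did not differ from 1 beyond counting error. TAGLN (transgelin, or SM22), an actin-binding protein of smooth muscle, was low, at 2.42 and 1.40 RPKM in siMYBL2-1 and siMYBL2-2 (mean 1.91 ± 0.720 RPKM, SD, n = 2), against 1.20 RPKM in siNC, from 396 and 253 reads in siMYBL2-1 and siMYBL2-2, and 189 in siNC. It was 2.02-fold (1.69 to 2.41) in siMYBL2-1 and 1.17-fold (0.963 to 1.42) in siMYBL2-2, so that the call at 1.5-fold rests on siMYBL2-1. Limma gave TAGLN a log2 change of 0.38 (SE 0.31), adjusted p 0.999, and 88.6% of its exonic sequence is covered by no other row. TAGLN2, its relative outside muscle, lay below siNC, at 38.2 and 47.4 RPKM in the siMYBL2 libraries and 54.8 RPKM in siNC. CNN3 made up 39.5% and 32.6% of the family's summed RPKM in siMYBL2-1 and siMYBL2-2, against 19.4% in siNC, and TAGLN2 30.2% and 42.9%, against 54.4% in siNC.

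**Figure D4:**
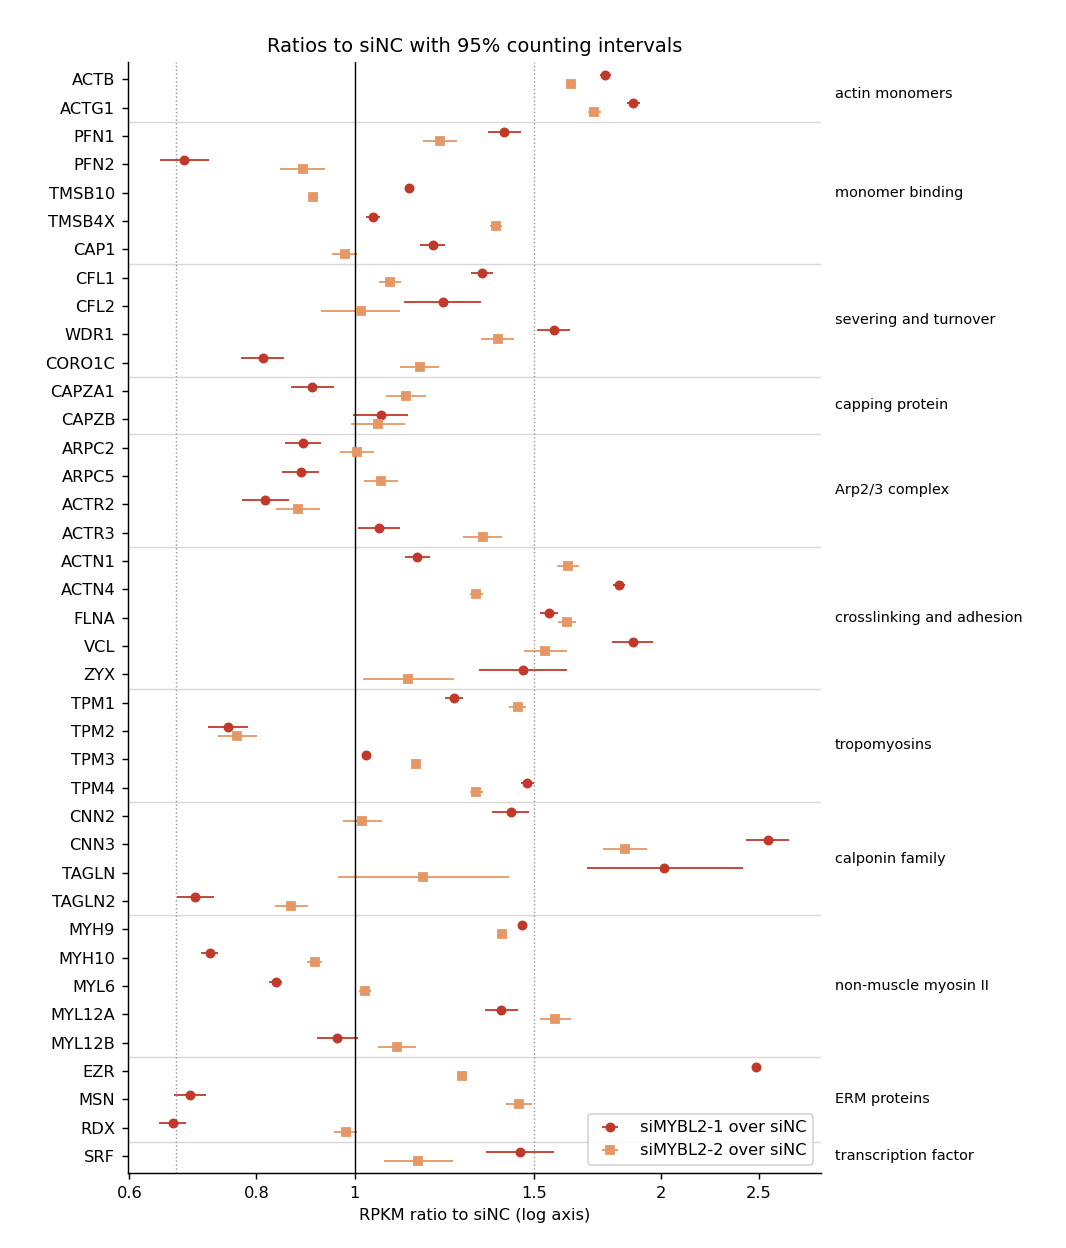
RPKM ratio to siNC (log axis) of the 39 tested genes in the siMYBL2-1 and siMYBL2-2 libraries, with 95% counting intervals, grouped by role, with dotted lines at 1.5-fold in each direction. CNN3 at 2.55 and EZR at 2.48 reach farthest to the right in siMYBL2-1, and RDX at 0.662 lies farthest to the left.

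In non-muscle myosin II, the motor that pulls on actin filaments, the 2 heavy chains lay on opposite sides of siNC. MYH9, the heavy chain of myosin IIA, was at 341 and 325 RPKM in siMYBL2-1 and siMYBL2-2 (mean 333 ± 10.8 RPKM, SD, n = 2), against 233 RPKM in siNC, 1.46-fold (1.45 to 1.47) and 1.40-fold (1.38 to 1.41). MYH10, the heavy chain of myosin IIB, was at 45.9 and 58.3 RPKM in siMYBL2-1 and siMYBL2-2, against 63.9 RPKM in siNC, at ratios of 0.720 (0.706 to 0.734) and 0.913 (0.896 to 0.929). MYH9 was 7.41 and 5.58 times MYH10 in the siMYBL2 libraries, against 3.65 times in siNC, a ratio within each library that scaling between libraries does not touch.

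The regulatory light chain genes MYL12A and MYL12B, whose products switch the motor on when phosphorylated, are neighbours on chromosome 18, and MYL12A lay above siNC in both siMYBL2 libraries while MYL12B overlapped it. MYL12A was at 51.0 and 57.7 RPKM in siMYBL2-1 and siMYBL2-2 (mean 54.3 ± 4.71 RPKM, SD, n = 2), against 36.6 RPKM in siNC, from 6922 and 8641 reads in siMYBL2-1 and siMYBL2-2, and 4782 in siNC. The ratios were 1.39 (1.34 to 1.45) and 1.58 (1.52 to 1.63), with a limma log2 change of 0.55 (SE 0.29), adjusted p 0.999. MYL12B was at 50.2 and 57.4 RPKM in the siMYBL2 libraries and 52.2 RPKM in siNC. The MYL12A to MYL12B ratio was 1.02 and 1.00 in siMYBL2-1 and siMYBL2-2, against 0.701 in siNC. These genes are close relatives, and how the authors' counting treated reads that match both is not stated in the labels. MYL6, the essential light chain, was at 177 and 217 RPKM in siMYBL2 and 212 RPKM in siNC, so its groups overlapped.

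**Figure D5:**
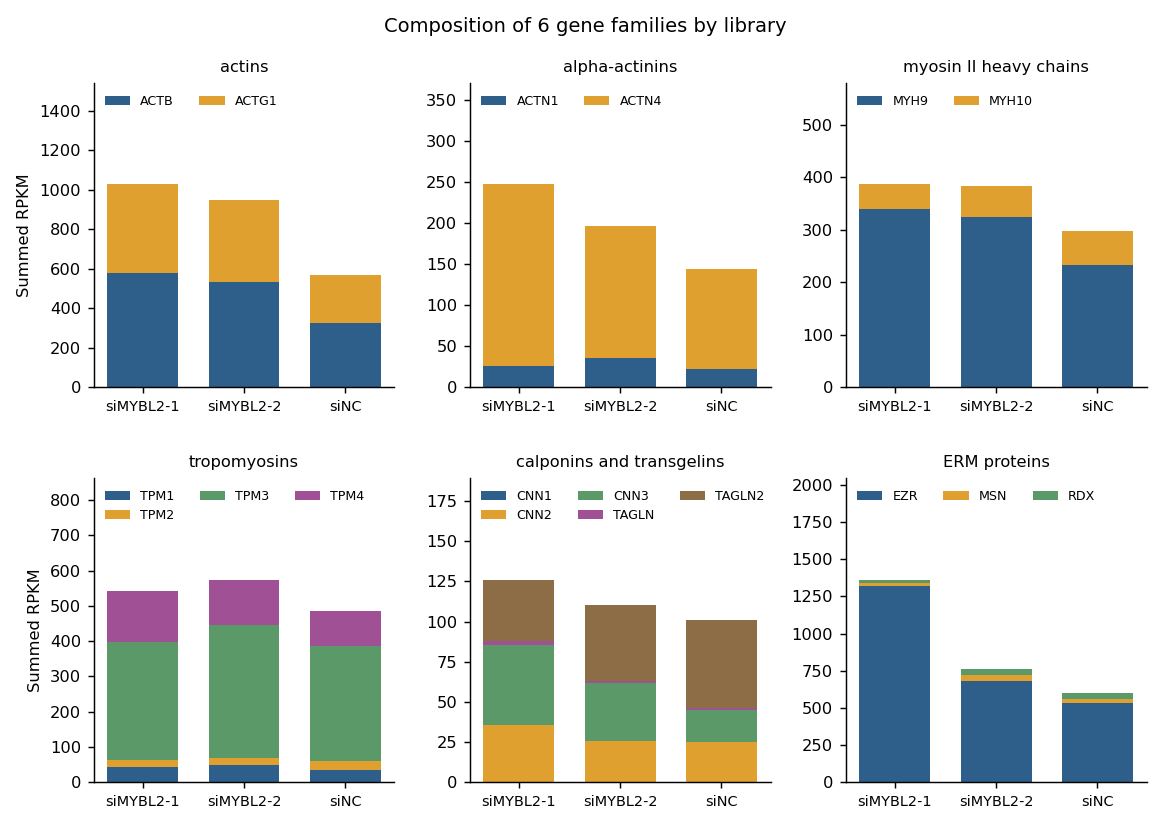
Summed RPKM (vertical axis, from 0) of 6 gene families in siMYBL2-1, siMYBL2-2 and siNC, stacked by gene. The actins sum to 1027 and 946 RPKM in the siMYBL2 libraries and 566 RPKM in siNC, and EZR fills most of the ERM bars, which reach 1364 RPKM in siMYBL2-1, 758 RPKM in siMYBL2-2 and 600 RPKM in siNC.

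The ERM proteins, which tie the plasma membrane to the actin cortex, set the siMYBL2 libraries apart. EZR (ezrin; chromosome 6, 158765741 to 158819412, minus strand), the ERM protein of epithelial microvilli, was at 1317 and 677 RPKM in siMYBL2-1 and siMYBL2-2 (mean 997 ± 453 RPKM, SD, n = 2), against 531 RPKM in siNC, from 184088 and 104501 reads in siMYBL2-1 and siMYBL2-2, and 71391 in siNC. The ratios to siNC were 2.48 (2.46 to 2.5) and 1.28 (1.26 to 1.29), and limma gave a log2 change of 0.83 (SE 0.39), adjusted p 0.999. Without siMYBL2-1 the value for EZR is the ratio of siMYBL2-2, under the 1.5-fold line. MSN (moesin) split around siNC, at 19.8 and 41.8 RPKM in siMYBL2-1 and siMYBL2-2, against 28.8 RPKM in siNC. RDX (radixin) was at 26.7 and 39.5 RPKM in siMYBL2-1 and siMYBL2-2, against 40.3 RPKM in siNC, at ratios of 0.662 (0.642 to 0.682) and 0.979 (0.954 to 1.01), from 7357 and 12027 reads in siMYBL2-1 and siMYBL2-2, and 10706 in siNC. EZR was 66.5 and 16.2 times MSN in siMYBL2-1 and siMYBL2-2, against 18.4 times in siNC.

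Set against each other, the siMYBL2 libraries differed by at least 1.5-fold in 3 of the 39 members. EZR, at 1.95-fold (1.93 to 1.96), and TAGLN, at 1.73-fold (1.47 to 2.03), were higher in siMYBL2-1 than in siMYBL2-2 (5.13% of members, beside 10.6% of all genes tested). MSN was lower in siMYBL2-1, at 0.474 (0.459 to 0.490) of its level in siMYBL2-2, which is 2.56% of members beside 11.5% of all genes. At 2-fold, 0 members were higher, beside 3.99% of all genes, and MSN was lower, beside 3.04%. The 9 epithelial markers differed between these libraries in both directions. CDH1 (E-cadherin) was at 36.2 and 8.98 RPKM in siMYBL2-1 and siMYBL2-2, against 14.8 RPKM in siNC, and EPCAM at 177 and 71.8 RPKM, against 102 RPKM in siNC. The keratins KRT8 (661 and 415 RPKM, against 403 RPKM in siNC), KRT18 (298 and 172 RPKM, against 124 RPKM) and KRT14 (2.57 and 1.29 RPKM, against 1.96 RPKM) were also higher in siMYBL2-1 than in siMYBL2-2. KRT5 (176 and 230 RPKM, against 315 RPKM in siNC) and TP63 (6.11 and 12.3 RPKM, against 14.5 RPKM) were lower in siMYBL2-1, and KRT7 (310 and 276 RPKM, against 251 RPKM) and KRT19 (800 and 716 RPKM, against 949 RPKM) differed least. Their part in the difference of EZR was not tested.

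Beyond the 41 genes, 94 others in 5 lists were taken by name, among them genes of actin nucleation, crosslinking and turnover and targets of MRTF and SRF. Of the 82 that passed the filter, limma called 0 higher and 0 lower, with 7 at an unadjusted p under 0.05, beside 625 of all 13274 genes, and a smallest adjusted p of 0.308. By size, 14 (17.1%) were at least 1.5-fold higher in siMYBL2-1 than in siNC and 9 (11%) lower, beside 11.2% and 15% of all genes tested. In siMYBL2-2 the counts were 7 (8.54%) higher and 4 (4.88%) lower, beside 4.91% and 8.63%.

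Among bundling proteins, PLS3 (plastin-3), which packs filaments into bundles, was at 66.8 and 67.8 RPKM in siMYBL2-1 and siMYBL2-2, against 41.2 RPKM in siNC. EVL and VASP, which promote growth at filament ends, were the lowest of the crosslinking and bundling genes that passed the filter. EVL was at 7.23 and 6.60 RPKM in siMYBL2-1 and siMYBL2-2, against 10.4 RPKM in siNC, and VASP at 15.0 and 18.2 RPKM, against 18.3 RPKM in siNC. The 18 tested genes of crosslinking had median log2 ratios to siNC of 0.18 in siMYBL2-1 and 0.17 in siMYBL2-2.

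The 21 tested genes of nucleation had medians of 0.07 and 0.07. At their top were DIAPH3, a formin, at 4.92 and 5.91 RPKM in siMYBL2-1 and siMYBL2-2, against 3.86 RPKM in siNC, and the Arp2/3 subunit gene ARPC5L, at 20.6 and 15.9 RPKM, against 13.5 RPKM in siNC. At the bottom were WASF1, of the WAVE complex that switches on Arp2/3, at 4.92 and 8.27 RPKM, against 8.15 RPKM in siNC, and the formin gene FMNL3, at 2.55 and 2.82 RPKM, against 3.33 RPKM in siNC.

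The 16 tested genes of capping, severing and turnover had medians of -0.15 in siMYBL2-1 and 0.09 in siMYBL2-2. SVIL (supervillin), which links myosin II to the membrane, was at 49.4 and 33.2 RPKM in the siMYBL2 libraries, against 25.6 RPKM in siNC. TMOD3 (tropomodulin-3), which caps the slow-growing filament end, was at 28.7 and 18.8 RPKM, against 15.6 RPKM in siNC. SSH3, of the phosphatase family that activates cofilin, was at 11.8 and 15.0 RPKM, against 19.8 RPKM in siNC, and the gene of the severing protein gelsolin, GSN, at 1.07 and 1.42 RPKM, against 1.86 RPKM in siNC. Genes of this list thus lay on both sides of siNC.

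SRF targets outside the 41 genes lay on both sides of siNC. Of 17 names in the list of SRF targets and coactivators 16 were in the table (ACTC1 was not analysed here) and 11 were tested. CCN1 and CCN2, matricellular proteins that are also known targets of TEAD factors, were the highest of the tested genes. CCN1 was at 20.8 and 10.7 RPKM in siMYBL2-1 and siMYBL2-2, against 3.34 RPKM in siNC (limma log2 change 1.88, SE 0.37, adjusted p 0.308), and CCN2 at 1.78 and 2.98 RPKM, against 1.06 RPKM in siNC. The immediate early genes EGR1 and FOS were the lowest of the tested genes, with EGR1 at 12.6 and 21.8 RPKM in the siMYBL2 libraries, against 46.3 RPKM in siNC, and FOS at 1.68 and 3.53 RPKM, against 8.33 RPKM in siNC. Other immediate early genes, JUNB at 15.1 and 19.3 RPKM against 33.0 RPKM in siNC and IER2 at 17.5 and 13.3 RPKM against 18.6 RPKM in siNC, lay below siNC by less. MICAL2, an enzyme that oxidises actin, was at 6.60 and 5.08 RPKM, against 2.74 RPKM in siNC. TUFT1 also lay above siNC in both siMYBL2 libraries, at 39.9 and 21.1 RPKM, against 14.5 RPKM in siNC. So did FHL2, at 1.17 and 1.23 RPKM, against 0.84 RPKM in siNC. The coactivator genes were low in every library, MRTFA at 2.30 and 2.42 RPKM in siMYBL2 and 2.11 RPKM in siNC, and MRTFB at 1.06 and 1.52 RPKM in siMYBL2 and 1.70 RPKM in siNC.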

How the data were processed

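Poly(A) RNA was sequenced from 2 siMYBL2 libraries and 1 siNC library of 5637 cells after dUTP labelling of the second strand, per the labels' protocols. The authors deposited RPKM values with exon positions and exonic lengths, per the file headers. Per the submitters' processing notes, which give no roles, the build was hg38 and the tools included HISAT2 2.0.4, StringTie 1.3.4d and cutadapt 1.9. Which program counted reads, with which strand setting and annotation, is not given in the sources used here. Reads of overlapping genes therefore cannot be told apart: 24 of 41 members share no exonic base with another row, and 7 keep under 90% to themselves (CFL1, CAPZA1, ACTN4, VCL, TPM1, TAGLN and MYL6).

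RPKM times length gave whole reads for 100% of values (tolerance 0.001 reads). Over 1 kilobase, 3 reads equal 0.0717, 0.0650 and 0.0745 RPKM in siMYBL2-1, siMYBL2-2 and siNC. As shares of a library, RPKM values depend on its other genes. siMYBL2 was compared with siNC by limma-trend (limma 3.58.1, R 4.3.3) on log2(RPKM + 1), for genes averaging at least 1 RPKM, with Benjamini-Hochberg adjustment over 13274 genes and a threshold of 0.05. Its log2 changes understate those of low genes, and other ratios are plain RPKM ratios. The spread comes from the siMYBL2 pair, and siNC is taken to vary like it. On simulated data the fit recovered large changes and made more false calls than its threshold allows. The simulated noise was a fixed value, not taken from these libraries. The simulation therefore does not show that changes of the members' size would be called here. Alternatives were another pseudocount, filters, scalings and fold threshold, limma-voom, pseudogene rows added, and each siMYBL2 library left out.

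Every member is named. Those past 1.5-fold are given with reads and intervals, and the 10 with the largest mean absolute log2 ratio with limma values. From each further list the 2 highest and 2 lowest by mean log2 ratio are named, except that 1 list and 1 further gene are not reported here. MICAL2, TUFT1, FHL2, JUNB, IER2, MRTFA and MRTFB were added after their values were seen. Members and lists were chosen with earlier results of these data known. CCN1, CCN2, MRTFA and MRTFB were matched through older names in RefSeq's gene table.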

Additional observations from a re-analysis of the deposited data

How the results depend on the processing

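The 0 members called higher and 0 called lower by limma stayed 0 under the 6 alternatives with a test (pseudocount 0.1 RPKM, no filter, a filter at 5 RPKM, median-of-ratios scaling, upper-quartile scaling and limma-voom), with a smallest adjusted p of 0.576 and, in the main setting, 5 members at an unadjusted p under 0.05. Of 232 log2 changes of the 39 members under these, 2 turned sign, both of MSN, which was near 0: -0.00083 with the pseudocount of 0.1 RPKM and -0.0044 with upper-quartile scaling. At 2-fold instead of 1.5-fold, 3 members were higher and 0 lower in siMYBL2-1 and 0 higher in siMYBL2-2. Under median-of-ratios scaling 13 members were at least 1.5-fold higher in siMYBL2-1 and 0 lower, beside 12.7% and 12.8% of all genes, and the median log2 ratio in siMYBL2-1 was 0.31, as the scaling shifts the ratios of all genes alike. Adding pseudogene rows, at most 3.76% of a member's reads, changed no count. Leaving out siMYBL2-1 or siMYBL2-2 leaves 1 library against 1, with no test: the log2 changes of 9 members (ARPC2, ARPC5, CAP1, CAPZA1, CORO1C, MSN, MYL12B, MYL6 and TMSB10) then differ in sign between the 2 cases. No paired analysis was possible because siNC has 1 library, with no replicate number in its label. The single siNC library limits every comparison.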
